A study of Mus musculus with 24 samples.

Results

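The RNA of the cytoplasm of naive mouse embryonic stem cells (nESC) was set against the RNA of the whole cells, called total RNA, gene by gene. The comparison rests on 6 of the 24 libraries of the series, 3 of nESC cytoplasm and 3 of nESC total RNA, and on 12592 of the 29759 genes of the table, those whose FPKM averaged 1 or more across the 12 nESC libraries. FPKM counts fragments per length of gene and per library depth, so it is a share of each library per unit of length. The nESC were cells of the E14 line in N2B27 medium with the MEK inhibitor PD0325901, the GSK3 inhibitor CHIR99021 and LIF. The same table holds 3 libraries each of nESC nucleoplasm and nESC chromatin, which were used to set the total RNA beside its fractions. Epiblast-like cells (EpiLC), the same line after 3 days with activin A (20 ng/ml) plus bFGF (at 12 ng/ml), had their own table, normalized separately. EpiLC cytoplasm and EpiLC total RNA are given side by side with the nESC values, with no test between the states. All libraries came from this 1 cell line.

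An mRNA is made, capped, spliced and given its tail in the nucleus and is then exported to the cytoplasm, where ribosomes translate it. Long noncoding RNAs such as Malat1, Neat1 and Meg3 act in the nucleus, and transcripts that keep unspliced introns are held there. Total RNA holds both compartments, so a gene's difference between cytoplasm and total depends in part on how its RNA is shared between them. The difference is relative to all other RNA in each library. It also varied with the GC content of transcripts, and total RNA was called above or below every fraction for some genes, as given below. Mitochondria lie in the cytoplasm and carry a small genome of their own. Naive embryonic stem cells keep Pou5f1, Nanog and Sox2 on together with Esrrb, Klf4, Klf2 and Zfp42, and EpiLC switch these naive genes down.

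The libraries of a group were alike, with a lowest correlation of log2 values over the tested genes of 0.991 between cytoplasm libraries and 0.994 between total libraries. FPKM summed to between 1782228 and 1980223 in cytoplasm and between 946944 and 982175 in total RNA. Steps in the low values of single-exon genes put the worth of 1 fragment over 1 kb at 0.0675 to 0.0859 FPKM in cytoplasm and at 0.0265 to 0.0292 FPKM in total RNA. A gene of 2 kb at 1 FPKM then rests on 23.3 to 29.6 fragments in cytoplasm and on 68.5 to 75.4 in total RNA. All 10 markers of naive stem cells averaged at least 1 FPKM in both. Summed markers of primitive endoderm reached at most 1.83 FPKM in cytoplasm and 1.63 FPKM in total RNA. Those of trophectoderm, 4 genes, summed to between 0.806 and 0.957 FPKM in cytoplasm, against 1.73 to 2.1 FPKM in total RNA. Another list of 10 trophectoderm markers went the other way. Its 3 tested members had a median log2 difference, cytoplasm minus total, of 1.75 and a lowest one of 0.36. Markers of fibroblasts and feeders summed to between 0.471 and 1.35 FPKM in cytoplasm. In total RNA they ranged from 0.411 to 7.63 FPKM, so the total libraries differed among themselves. The 4 mesoderm and neural markers summed to between 1.62 and 2.71 FPKM in cytoplasm, against 11.9 to 13.7 FPKM in total RNA. In bulk RNA, fewer cells of a type and less RNA per cell cannot be told apart, and the part of these markers in the results was not tested. Nothing in the labels says that the 3 libraries of a group came from separate cultures, so each p-value measures only the spread between these libraries.

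Of the 12592 genes, 4453 (35.4%) were called different between nESC cytoplasm and total RNA. A call here means an adjusted p under 0.05 in limma with Benjamini-Hochberg adjustment, and a difference of at least 2-fold on the log2(FPKM + 0.5) scale. Among them 2012 genes (16.0% of those tested) were higher and 2441 genes (19.4%) were lower in cytoplasm. The adjusted p alone was under 0.05 for 10060 genes, and the cytoplasm and total libraries did not overlap for 10596, of which 5753 were higher and 4843 lower in cytoplasm. The median difference over all tested genes was 0.11 on the log2 scale. Direction is relative to the authors' normalization: with each library scaled to one sum of FPKM the median became -0.72, with each library centred on its own median 0.28. The share of calls that were higher in cytoplasm was 45.2% as deposited, 56.9% after centring and 4.08% at one sum. Correction for transcript length and GC content, a smooth fit taken off each library, moved the median to -0.02 and that share to 39.9%. How much RNA of a gene a cell holds cannot be told apart from its share of a library.

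**Figure D1:**
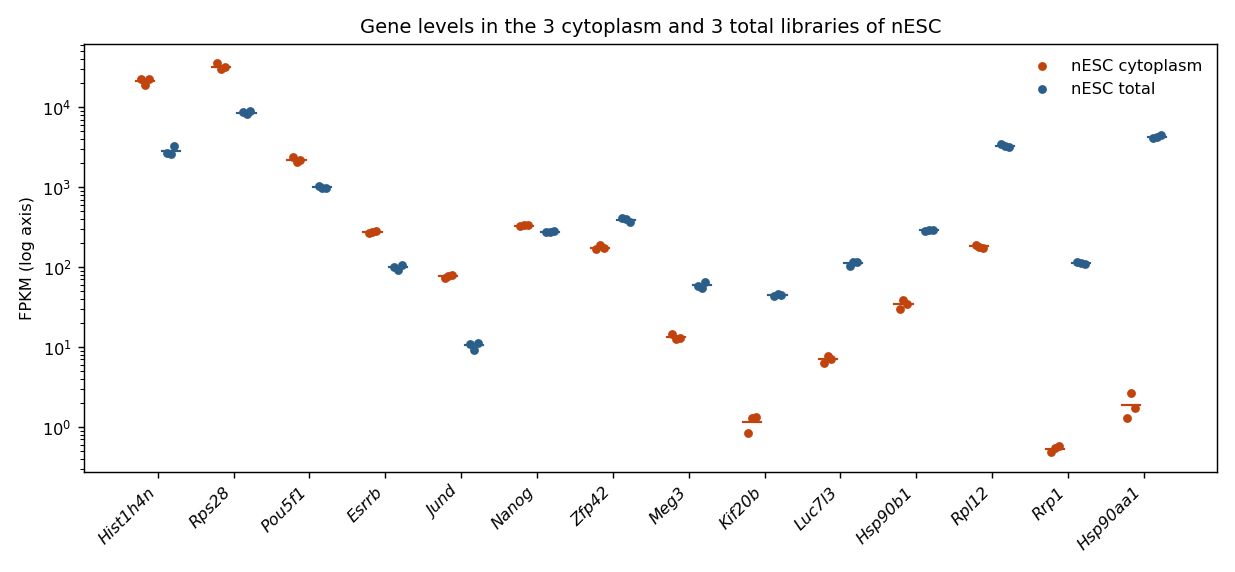
FPKM on a log axis of 14 genes in the 3 cytoplasm libraries (left points of each pair) and the 3 total libraries (right points) of nESC, with a bar at each mean. Histone, ribosomal protein, Pou5f1, Esrrb, Jund and Nanog levels lie higher in cytoplasm, and those of the genes from Zfp42 to Hsp90aa1 lower. The groups do not overlap for any of the 14, as for 10596 of the 12592 tested genes.

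The replication-dependent histone genes, which encode the core and linker histones that package new DNA, had the highest median of the 30 groups described. Their mRNAs carry no poly(A) tail and end in a short hairpin that binds SLBP, the protein that matures and exports them. Of 65 tested members 63 rose in cytoplasm and 0 fell, with a median log2 difference of 2.23. The members ranged between 0.73 and 2.92. The hairpin is shown because these messages carry it in place of a tail. It was searched as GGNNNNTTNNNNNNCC with 6 paired bases on each side of a 4-base loop, on the sense strand, in the last 100 bases of each GENCODE transcript. Of 65 tested histone genes 21 (32.3%) held it, against 6 of 12497 other tested genes (0.048%). A transcript without these letters shows nothing about SLBP. The hairpins of 5 members follow, which differ from one another in the stem-loop or in the flanking bases, 5′ to 3′, in mm10, with the paired stem and loop in capitals.
Hist1h4n, chr13:21831794-21831817, minus strand: taaaGGCCCTTTTCAGGGCCatcc
Hist2h2aa1, chr3:96246028-96246051, plus strand: aaaaGGCTCTTTTCAGAGCCaccc
Hist1h4f, chr13:23551287-23551310, minus strand: caaaGGCCCTTTTCAGGGCCaccc
Hist1h2bb, chr13:23747199-23747222, plus strand: caaaGGCTCTTTTAAGAGCCaccc
Hist1h2ab, chr13:23751568-23751591, plus strand: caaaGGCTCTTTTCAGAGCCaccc

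Hist1h4n (ENSMUSG00000069305.3, chromosome 13, 21831767 to 21832196), which encodes histone H4, had 22716, 18835 and 22554 FPKM in cytoplasm, against 2679.7, 2585 and 3234 FPKM in total RNA. Every cytoplasm library lay above every total library (log2 difference 2.92, SE 0.14, adjusted p = 2.07e-09, limma with Benjamini-Hochberg adjustment, as for every adjusted p given here). Hist1h4k, a second H4 gene, had 130139, 111953 and 125936 FPKM in cytoplasm, against 19168, 16388 and 21454 FPKM in total RNA (log2 difference 2.70, SE 0.16, adjusted p = 9.02e-09). Hist3h2ba, an H2B gene, had 241, 215 and 248 FPKM in cytoplasm, against 33, 32.9 and 33.8 FPKM in total RNA (log2 difference 2.8, SE 0.10, adjusted p = 3.64e-10). The 3 genes thus stood apart in all libraries by similar amounts although their levels differed greatly. Histone genes of one class are near-identical copies, so reads could be split between them and the level of a single copy is uncertain. The group's median remained positive at one sum (1.27) and after correction for transcript length and GC content (1.32). In EpiLC the median difference of the same genes was 1.9.

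The cytosolic ribosomal protein genes encode the subunits of the ribosome, and many of their mRNAs open with a terminal oligopyrimidine (TOP) run that controls their translation. Of 81 members 46 rose in cytoplasm, 34 were not called and 1, Rpl12, fell. Their median was 1.04, against 0.11 over all genes, and 1.2 in EpiLC. At one sum the median was 0.08, and after the length and GC correction 0.59. Rps28, a protein of the small subunit (ENSMUSG00000067288.12, chromosome 17, 33819027 to 33824562), had 35204, 29827 and 31435 FPKM in cytoplasm, against 8594, 8151 and 8849 FPKM in total RNA (log2 difference 1.91, SE 0.13, adjusted p = 2.72e-08). Rpl28, of the large subunit, had 4015, 4042 and 4102 FPKM in cytoplasm, against 1137, 994 and 1108 FPKM in total RNA (log2 difference 1.91, SE 0.11, adjusted p = 9.25e-09). Rplp1, an acidic protein of the ribosomal stalk, had 29030.4, 24724 and 25906 FPKM in cytoplasm, against 10666, 9116 and 8826 FPKM in total RNA (log2 difference 1.48, SE 0.13, adjusted p = 3.96e-07). None of these 3 genes had overlapping groups, as was so for 10596 of the 12592 tested genes. At one sum their differences were 0.95, 0.94 and 0.51 in that order, under the 2-fold limit of a call, and Rplp1 was at 0.52 after the length and GC correction.

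Start sites of 4 ribosomal protein genes are shown because TOP runs are a known feature of the group, and Rpl12 is among them as the member that fell. They come from RefSeq on GRCm38.p6, 15 bases before and 15 from the annotated start, with the pyrimidine run in capitals. A run was counted as C followed by at least 5 C or T, on the gene's strand, within 5 bases of the start. It was found in 26 of 60 matched ribosomal protein promoters (43.3%), in 1000 of 9412 promoters of other tested genes (10.6%), and in 3352 of all 32851 promoters of the table (10.2%).
Rpl28, chr7:4792950-4792979, plus strand: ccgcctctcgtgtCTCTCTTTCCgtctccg
Rps10, chr17:27635230-27635259, minus strand: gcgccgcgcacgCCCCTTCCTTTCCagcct
Rps2, chr17:24720048-24720077, plus strand: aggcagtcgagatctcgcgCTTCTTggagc
Rpl12, chr2:32961697-32961726, plus strand: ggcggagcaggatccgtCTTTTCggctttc
With the run, 15 of 26 genes rose in cytoplasm and 1, Rpl12, fell. Without it, 19 of 34 rose and 0 fell. The run stood in Rpl12, the one member that fell, as it did in members that rose.

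Rpl12, a protein at the base of the ribosomal stalk (ENSMUSG00000038900.17, chromosome 2, 32961559 to 32965345), had 191, 180.1 and 172 FPKM in nESC cytoplasm, against 3449, 3256 and 3208 FPKM in nESC total RNA. All 3 cytoplasm libraries were low (log2 difference -4.19, SE 0.12, adjusted p = 3.43e-11). Nucleoplasm held 1263 ± 87.4 FPKM and chromatin 994 ± 185 FPKM (SD, n = 3), so total RNA was called above every fraction. In EpiLC the same gene had 3682, 3755 and 3054 FPKM in cytoplasm, against 1468, 1425 and 1436 FPKM in total RNA, the opposite order.

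A similar picture held for the genes named Rrp, which were looked at after their values were seen. The proteins of this name work in the nucleolus on ribosomal RNA and on the assembly of both ribosomal subunits. All 8 tested Rrp genes fell in nESC cytoplasm, with a median log2 difference of -5.30 and a range of -6.76 to -1.19. In EpiLC all 8 had a difference above 0, with a median of 0.71. Rrp1, which takes part in large subunit assembly (ENSMUSG00000061032.8, chromosome 10, 78400384 to 78413043), had 0.481, 0.546 and 0.581 FPKM in nESC cytoplasm, against 115, 112 and 109 FPKM in nESC total RNA (log2 difference -6.76, SE 0.08, adjusted p = 2.21e-14). Its nESC nucleoplasm held 81.5 ± 4.26 FPKM and its nESC chromatin 27.3 ± 2.15 FPKM (SD, n = 3). EpiLC cytoplasm held 215, 213 and 217 FPKM of it, against 126, 130.2 and 123 FPKM in EpiLC total RNA. Among these compartments the gene was near 0 in nESC cytoplasm alone.

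Rrp15, an assembly factor of the large subunit (ENSMUSG00000001305.5, chromosome 1, 186720978 to 186749358), had 0.326, 0.8 and 0.852 FPKM in nESC cytoplasm, against 109, 109 and 97.1 FPKM in nESC total RNA (log2 difference -6.54, SE 0.15, adjusted p = 1.28e-11). Rrp36, which acts in early cleavage of the ribosomal RNA precursor, had 0.0808, 0.0628 and 0 FPKM in nESC cytoplasm, against 27.7, 27 and 25.8 FPKM in nESC total RNA (log2 difference -5.64, SE 0.12, adjusted p = 1.04e-11). Rrp7a, of the small subunit pathway, had 0.497, 0.542 and 0.958 FPKM in nESC cytoplasm, against 48.1, 49.8 and 40.5 FPKM in nESC total RNA (log2 difference -5.34, SE 0.14, adjusted p = 3.21e-11). At the depth given above, the cytoplasm values of Rrp36, which has 2339 bases of exons, rest on few fragments or none. Rrp12, a factor in the export of both subunits, had 0.19, 0.089 and 0.0789 FPKM in nESC cytoplasm, also from few fragments, against 22.9, 23.9 and 23.2 FPKM in nESC total RNA (log2 difference -5.27, SE 0.09, adjusted p = 9.31e-13). The other members fell less: Rrp8, a nucleolar methyltransferase, by a log2 difference of -2.97, Rrp1b by -2.55, and Rrp9, a protein of the U3 snoRNP, by -1.19. In EpiLC the cytoplasm libraries lay above the total libraries for all of them except Rrp15, whose mean was 85.2 FPKM in EpiLC cytoplasm and 82.9 FPKM in EpiLC total RNA.

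Few other genes shared the combination. Of 11704 genes tested in both states, 15 fell at least 4-fold in nESC cytoplasm while the EpiLC difference was -0.3 or more. They were Rpl12, 7 of the 8 Rrp genes (all but Rrp9), Exosc5, Cmtr1, Rrnad1, AY036118, Enox1, Nlrp12 and Gm21761. Exosc5, a subunit of the RNA exosome that trims ribosomal RNA precursors, had 3.84, 3.09 and 2.35 FPKM in nESC cytoplasm, against 110, 97.3 and 96 FPKM in nESC total RNA (log2 difference -4.84, SE 0.15, adjusted p = 8.83e-11). Its EpiLC cytoplasm held 247, 265 and 219 FPKM, against 88.2, 91.1 and 88.8 FPKM in EpiLC total RNA. Cmtr1, a methyltransferase of the mRNA cap, had 0.36, 0.453 and 0.53 FPKM in nESC cytoplasm, against 26.5, 27.8 and 27.7 FPKM in nESC total RNA (log2 difference -4.88, SE 0.11, adjusted p = 1.04e-11), and a difference of 0.56 in EpiLC. The fall was not general to the exosome: of 11 tested genes 3 fell (Exosc5, Dis3 and Exosc9), 1 rose (Exosc4) and 7 were not called. The rise of Exosc4 was 0.06 at one sum and 0.17 after the length and GC correction, and Exosc9 was at -0.37 after it, none called. Among 46 other nucleolar assembly genes 15 fell (32.6%, against 19.4% of all genes) and 1 rose (2.17%, against 16.0%). Their median was -0.52 in nESC and 0.22 in EpiLC. These 3 lists were also drawn up after the values were seen.

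All 3 tested transcripts annotated over a ribosomal RNA repeat on chromosome 17 fell in nESC cytoplasm. Gm26917 had 3.46, 1.68 and 1.96 FPKM in nESC cytoplasm, against 6365, 4445 and 3968 FPKM in nESC total RNA (log2 difference -10.77, SE 0.20, adjusted p = 2.32e-12). Gm42418, which overlaps AY036118, had 32.4, 29.4 and 34.6 FPKM in nESC cytoplasm, against 1183, 641 and 667 FPKM in nESC total RNA (log2 difference -4.62, SE 0.24, adjusted p = 3.55e-09). In EpiLC cytoplasm Gm26917 averaged 2134 FPKM and Gm42418 2024 FPKM, against 6015 and 3185 FPKM in EpiLC total RNA, so both were lower there as well, unlike AY036118, whose EpiLC difference was 1.87. Gm42418 and AY036118 lie on opposite strands over the same bases, so their reads cannot be told apart unless strand was used in counting. The libraries were depleted of ribosomal RNA before sequencing, and the part of these transcripts in the low values of the Rrp genes was not tested.

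**Figure D2:**
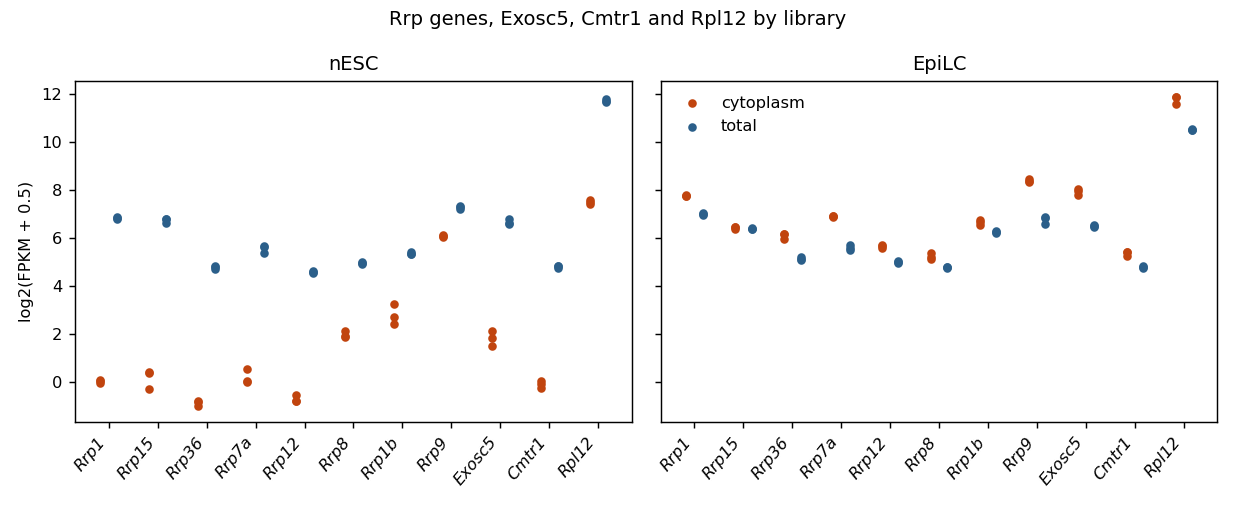
log2(FPKM + 0.5) of the 8 Rrp genes, Exosc5, Cmtr1 and Rpl12 in each cytoplasm library (left points) and each total library (right points), for nESC in the left panel and EpiLC in the right panel. In nESC all cytoplasm points lie below the total points, and in EpiLC they lie above them except for Rrp15, where they overlap.

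The nuclear-encoded respiratory chain genes, whose products make up the complexes of oxidative phosphorylation, had 22 of 75 members called higher and 1 lower, with a median of 0.79. Mitochondrial ribosomal proteins had 18 of 78 higher and 1 lower, with a median of 0.68. The shares higher were 29.3% of the respiratory chain genes and 23.1% of these, against 16.0% of all genes. The shares lower were 1.33% and 1.28%, against 19.4%. Mitochondrial chaperones and import factors had 5 of 28 higher (17.9%, near the 16.0% of all genes) and 3 lower, with a median of 0.59. The Slc25 carriers of the inner membrane had 4 of 37 higher (10.8%) and 6 lower (16.2%, against 19.4% of all genes), with a median of 0.10. The first 3 medians turned negative at one sum, at -0.17, -0.28 and -0.37 in that order, while the median of all genes was -0.72 there. Atp5e, the epsilon subunit of ATP synthase, had 564, 533 and 505 FPKM in cytoplasm, against 188, 181 and 136 FPKM in total RNA (log2 difference 1.67, SE 0.18, adjusted p = 2.25e-06). Mrps34, of the small mitochondrial subunit, had 96.8, 94.7 and 97.9 FPKM in cytoplasm, against 34.9, 28.4 and 31.2 FPKM in total RNA (log2 difference 1.6, SE 0.14, adjusted p = 4.49e-07). At one sum Atp5e was at 0.71 and Mrps34 at 0.65, neither called. The respiratory chain member that fell was Ndufs1, the largest subunit of complex I, and the ribosomal one was Mrpl50, which was at -0.88 with centring and -0.30 after the length and GC correction. Among the chaperones and import factors Clpx, Hspd1 and Tomm70a fell. Ndufs1 had 46, 50.7 and 45.1 FPKM in cytoplasm, against 118, 116 and 106 FPKM in total RNA (log2 difference -1.26, SE 0.10, adjusted p = 1.33e-07), and -0.62 after the correction.

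The messages of the mitochondrial genome itself did not follow them. Of 13 tested, 6 fell in cytoplasm and 0 rose, with a median of -0.83 and, in EpiLC, of -1.53. Those that fell were mt-Nd3, mt-Nd4, mt-Nd4l, mt-Nd5, mt-Nd6 and mt-Atp8. mt-Nd5, a membrane subunit of complex I, had 54.5, 51.7 and 51.2 FPKM in cytoplasm, against 260.2, 279 and 257 FPKM in total RNA (log2 difference -2.33, SE 0.13, adjusted p = 7.0e-09). mt-Nd6, the message on the light strand, had 91.1, 77.5 and 80.8 FPKM in cytoplasm, against 246, 252 and 258 FPKM in total RNA (log2 difference -1.6, SE 0.17, adjusted p = 2.28e-06). mt-Co1, the catalytic subunit of complex IV, had 1402, 2144 and 1935 FPKM in cytoplasm, against 3038, 3118 and 3465 FPKM in total RNA. It was lower in every cytoplasm library but under the 2-fold limit (log2 difference -0.83, SE 0.20, adjusted p = 0.00174). mt-Co3, of the same complex, had 7923, 8993 and 8268 FPKM in cytoplasm, against 6656, 6628 and 6878 FPKM in total RNA, and was not called (log2 difference 0.32, SE 0.21, adjusted p = 0.184). Nucleoplasm held more mt-Co1 than any other fraction, at 8894 ± 501 FPKM (SD, n = 3), and more mt-Nd5 than cytoplasm, at 267 ± 30.5 FPKM. These messages have a median GC content of 37.1%, and their median turned to 0.82 after the length and GC correction, with mt-Nd5 at -0.85, mt-Nd6 at 0.36 and mt-Co1 at 0.22, none called, and mt-Co3 called higher at 1.52. At one sum mt-Co1 was called lower at -1.80 and mt-Co3 was at -0.65.

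Glycolysis breaks glucose down to pyruvate in the cytosol. Its genes had 5 of 18 higher (27.8%, against 16.0% of all genes) and 0 lower. Their median was 0.75, which turned to -0.21 at one sum. Gapdh, a glycolytic dehydrogenase, had 5185, 5659.7 and 5673 FPKM in cytoplasm, against 2161, 2077 and 2186 FPKM in total RNA (log2 difference 1.36, SE 0.09, adjusted p = 2.01e-08). Actb, cytoplasmic actin, had 2525, 2567 and 2693 FPKM in cytoplasm, against 1163, 1103 and 1206 FPKM in total RNA (log2 difference 1.17, SE 0.14, adjusted p = 6.37e-06). At one sum the differences of Gapdh and Actb were 0.40 and 0.20, so neither was called there, nor after the length and GC correction (0.90 and 0.77). Among 18 housekeeping genes 6 rose (33.3%) and 1, Tfrc, fell (5.56%, against 19.4% of all genes), with a median of 0.57. Tfrc, the transferrin receptor, had 19.6, 18.5 and 18.4 FPKM in cytoplasm, against 233, 253 and 230.5 FPKM in total RNA (log2 difference -3.63, SE 0.13, adjusted p = 2.67e-10).

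Genes of protein synthesis had calls in both directions, and those of protein turnover were mostly not called. Translation factors had 8 of 63 higher (12.7%) and 15 lower (23.8%), with a median of 0.23. These shares were near the 16.0% and 19.4% of all genes. Eif3f, a core subunit of the initiation factor eIF3, had 177, 181 and 201 FPKM in cytoplasm, against 42.5, 36.9 and 42.9 FPKM in total RNA (log2 difference 2.18, SE 0.10, adjusted p = 1.21e-09). Eif3a, the largest subunit of the same complex, had 11.7, 18.5 and 13.5 FPKM in cytoplasm, against 147, 150.3 and 156 FPKM in total RNA (log2 difference -3.35, SE 0.18, adjusted p = 4.55e-09). So messages for partners in 1 complex lay on opposite sides. Neither gene had overlapping groups, as was so for 10596 of the 12592 tested genes. Eef2, the translocation factor of elongation, rose (log2 difference 1.22, SE 0.09, adjusted p = 6.34e-08), and Eef1a1, which delivers transfer RNAs, was not called (log2 difference 0.27, SE 0.12, adjusted p = 0.0514). Eef2 was at 0.25 at one sum and 0.36 after the correction, and Eef1a1 at -0.70 at one sum. Eef1a1 had 16772, 16329 and 16353 FPKM in cytoplasm, against 13606, 13778 and 13688 FPKM in total RNA. Of 36 proteasome genes 1 rose (Psmd3), 1 fell (Psmc6) and 34 were not called, with a median of 0.24.

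Chaperones help other proteins to fold. Of 34 cytosolic chaperones 8 fell (23.5%, against 19.4% of all genes; Hsp90aa1, Hspa8, Hspa4, Hsph1, Cct8, Dnaja1, Dnaja2 and Vbp1) and 2 rose (Hspb1 and Bag3), with a median of -0.21. Neither rise was called at one sum (Hspb1 0.35, Bag3 0.88) or after the length and GC correction (Hspb1 0.10, Bag3 0.91). After the correction Cct8 was at -0.85, Dnaja1 at -0.81 and Vbp1 at 0.17, none called. Hsp90aa1, the inducible cytosolic HSP90 (ENSMUSG00000021270.13, chromosome 12, 110690605 to 110702728), had 1.31, 2.63 and 1.74 FPKM in cytoplasm, against 4168, 4203 and 4472 FPKM in total RNA. The 3 cytoplasm libraries were near 0 although the gene was among the abundant ones in total RNA (log2 difference -10.84, SE 0.17, adjusted p = 5.51e-13). Its nESC nucleoplasm held 2924 ± 244 FPKM and its nESC chromatin 696 ± 131 FPKM (SD, n = 3). In EpiLC it had 290.3, 281 and 676 FPKM in cytoplasm, against 2841, 2486 and 2519.8 FPKM in total RNA, lower but far from 0. Its constitutive paralog Hsp90ab1 had 1115, 1094 and 1102 FPKM in cytoplasm, against 899, 945 and 1053 FPKM in total RNA, and was not called (log2 difference 0.20, SE 0.10, adjusted p = 0.0858). Reads shared between the 2 paralogs could be split by the counting, so the low cytoplasmic value of Hsp90aa1 is uncertain in size. Hspa8, the constitutive HSP70, had 1178, 1164 and 1172 FPKM in cytoplasm, against 2601, 2759 and 2656 FPKM in total RNA (log2 difference -1.19, SE 0.07, adjusted p = 5.98e-09), and a difference of -0.85 after the correction.

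Messages for chaperones and translocon proteins of the endoplasmic reticulum are translated on its membrane. Of 48 tested, 11 fell (22.9%, against 19.4% of all genes) and 1, Kdelr3, rose (2.08%, against 16.0%). The median was -0.15, which became 0.01 with the libraries centred. Hsp90b1, the HSP90 of the reticulum, had 29.9, 39.1 and 34.8 FPKM in cytoplasm, against 282, 287 and 293 FPKM in total RNA (log2 difference -3.04, SE 0.10, adjusted p = 1.69e-10). Hspa5, its HSP70, had 77, 78.6 and 76.1 FPKM in cytoplasm, against 365, 345 and 318 FPKM in total RNA (log2 difference -2.14, SE 0.08, adjusted p = 4.29e-10). Canx, a lectin chaperone, had 87.9, 102 and 91.7 FPKM in cytoplasm, against 412, 425 and 413 FPKM in total RNA (log2 difference -2.14, SE 0.11, adjusted p = 4.56e-09). All 3 were lower in each cytoplasm library, and nucleoplasm held 498, 402 and 541 FPKM of them, more than total RNA did. The reticulum is joined to the nuclear envelope, and whether some of it went with the nuclei was not tested.

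Other genes of secreted or membrane proteins did not share one direction. Among 42 surface receptors and adhesion proteins 6 rose (14.3%) and 10 fell (23.8%), with a median of -0.01. Among 138 solute carriers 20 rose (14.5%) and 22 fell (15.9%), with a median of 0.23. Lysosomal genes had 3 of 28 higher (10.7%) and 2 lower (7.14%), with a median of 0.23. Matrix genes had 1 of 18 higher (5.56%) and 2 lower (11.1%), with a median of 0.19. Over all tested genes 16.0% were higher and 19.4% lower, near the shares of the receptors and the solute carriers. By median, nucleoplasm lay above total RNA in these groups too. Median total minus nucleoplasm was -1.22 for receptors, -0.51 for solute carriers, -1.26 for lysosomal genes and -1.77 for matrix genes. The reticulum list above had -0.27, and all tested genes 0.06. Slc7a5, the light chain of a transporter of large amino acids, had 73.8, 73.2 and 77.9 FPKM in cytoplasm, against 15.1, 14.8 and 15.7 FPKM in total RNA (log2 difference 2.26, SE 0.07, adjusted p = 5.56e-11). Lama1, a laminin chain, and Cdh1, E-cadherin, were not called, with 9.62, 9.31 and 10.2 and 41.9, 41.5 and 43.7 FPKM in cytoplasm, against 16.3, 16.9 and 17.6 and 56.9, 56.1 and 63.3 FPKM in total RNA. Their log2 differences were -0.77 for Lama1 and -0.47 for Cdh1. At one sum both were called lower (Lama1 -1.68, Cdh1 -1.42), as was Lama1 after the length and GC correction (-1.11). Coding genes were also split by the hydrophobic stretches of their proteins, which mark signal peptides and membrane spans. Those with a stretch both at the start and further in had a median of 0.20 (859 genes). The median was 0.10 with a stretch further in only (2149 genes), 0.30 with one at the start only (751 genes) and 0.16 with neither (7718 genes).

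Pluripotency genes lay on both sides, in shares near those of all tested genes. Of the core genes 22.2% were called higher and 16.7% lower, and of the naive genes 18.5% and 22.2%. Over all tested genes the shares were 16.0% and 19.4%. Of 18 core genes 4 rose (Pou5f1, Sall4, Utf1 and Foxd3) and 3 fell (Rif1, Zfp281 and L1td1), with a median of 0.25. Of 27 naive genes 5 rose (Klf5, Tbx3, Esrrb, Klf2 and Dppa5a) and 6 fell (Nr5a2, Gbx2, Tet2, Dppa3, Zfp42 and Lifr), with a median of 0.12. After the length and GC correction Utf1 (0.88), Tet2 (-0.76) and Dppa3 (-0.78) were under the 2-fold limit. Both medians turned negative at one sum (-0.71 core, -0.83 naive) and after the length and GC correction (-0.20 core, -0.11 naive). Pou5f1, which encodes OCT4, the central factor of the pluripotent state (ENSMUSG00000024406.16, chromosome 17, 35506018 to 35510772), had 2388, 2075 and 2182 FPKM in cytoplasm, against 1029.6, 973 and 979 FPKM in total RNA (log2 difference 1.15, SE 0.11, adjusted p = 9.75e-07). Its difference was 0.19 at one sum and 0.17 after the correction, not called in either. Nanog had 327, 332 and 333 FPKM in cytoplasm, against 274, 277 and 279.8 FPKM in total RNA, and Sox2 had 182, 201 and 196 FPKM in cytoplasm, against 179, 166 and 171 FPKM in total RNA. Their groups did not overlap, but both differences were under 2-fold (Nanog log2 difference 0.26, SE 0.08, adjusted p = 0.00738, and Sox2 log2 difference 0.17, SE 0.08, adjusted p = 0.0762). At one sum both were negative, at -0.71 for Nanog and -0.80 for Sox2.

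Esrrb, an orphan nuclear receptor of the naive state, had 264, 277 and 282 FPKM in cytoplasm, against 101, 93.1 and 107 FPKM in total RNA (log2 difference 1.45, SE 0.08, adjusted p = 9.55e-09). Klf2, a Krüppel-like factor, had 80.6, 110.1 and 113 FPKM in cytoplasm, against 25.6, 24 and 27.4 FPKM in total RNA (log2 difference 1.95, SE 0.14, adjusted p = 6.42e-08). Neither was called at one sum (Esrrb 0.48, Klf2 0.99) or after the length and GC correction (Esrrb 0.85, Klf2 0.77). Klf4 had 12.7, 16.8 and 18.3 FPKM in cytoplasm, against 14, 11.7 and 12.7 FPKM in total RNA, with overlapping groups and no call (log2 difference 0.29, SE 0.12, adjusted p = 0.0397). Zfp42, also known as Rex1 and used as a reporter of the naive state, had 168, 187 and 172 FPKM in cytoplasm, against 407, 397 and 369 FPKM in total RNA (log2 difference -1.15, SE 0.07, adjusted p = 1.71e-08). Centring took Zfp42 to -0.99, just under 2-fold. Rif1, a factor of replication timing and telomeres, had 6.21, 8.38 and 8.92 FPKM in cytoplasm, against 136, 147 and 138 FPKM in total RNA (log2 difference -4.09, SE 0.12, adjusted p = 5.29e-11). The median GC content of the core list was 52.5%. Among its extremes Utf1 had 63.5% GC and a difference of 2.12, and Rif1 39.3% GC and a difference of -4.09. Genes of the formative epiblast had 5 of 14 tested members higher (Otx2, Krt18, Krt8, Cldn6 and Foxd3) and 1 lower (Lin28b), with a median of 0.71. These were 35.7% and 7.14%, against 16.0% and 19.4% of all genes, and the median was -0.27 at one sum.

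Immediate early genes, which respond within minutes to growth factors and stress and whose mRNAs decay quickly, were called in 1 direction, higher in cytoplasm. Of 21 tested members 11 rose (52.4%, against 16.0% of all genes) and 0 fell. Their median was 1.01, against 0.11 in EpiLC. The median was 0.13 at one sum and 0.17 after the length and GC correction. Medians of total minus chromatin and total minus nucleoplasm were -0.71 and -0.41, against -0.08 and 0.06 over all genes. Total RNA was called below every fraction for Jun, Fos, Dusp1 and Arc, but not for Jund or Maff. Jun, a subunit of the AP-1 transcription factor, had 5.15, 5 and 5.1 FPKM in cytoplasm, against 0.437, 0.348 and 0.591 FPKM in total RNA (log2 difference 2.55, SE 0.12, adjusted p = 1.77e-09). Jund, its relative, had 74.1, 77.5 and 80.8 FPKM in cytoplasm, against 11, 9.16 and 11.3 FPKM in total RNA (log2 difference 2.83, SE 0.11, adjusted p = 3.64e-10). Fos, their partner, had 2.49, 2.86 and 2.81 FPKM in cytoplasm, against 0.318, 0.472 and 1.56 FPKM in total RNA (log2 difference 1.45, SE 0.26, adjusted p = 1.9e-04). Each lay higher in all cytoplasm libraries, but Fos was not called at one sum (0.70) or after the correction (0.94). In EpiLC the differences were -0.17 for Jun, 1.33 for Jund and -3.73 for Fos. Chromatin of nESC held 46.9 ± 4.88 FPKM of Fos (SD, n = 3), more than the other fractions. Dusp1, a phosphatase of MAP kinases, had a difference of 1.72 in nESC and of -0.43 in EpiLC, and was not called at one sum (0.78).

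**Figure D3:**
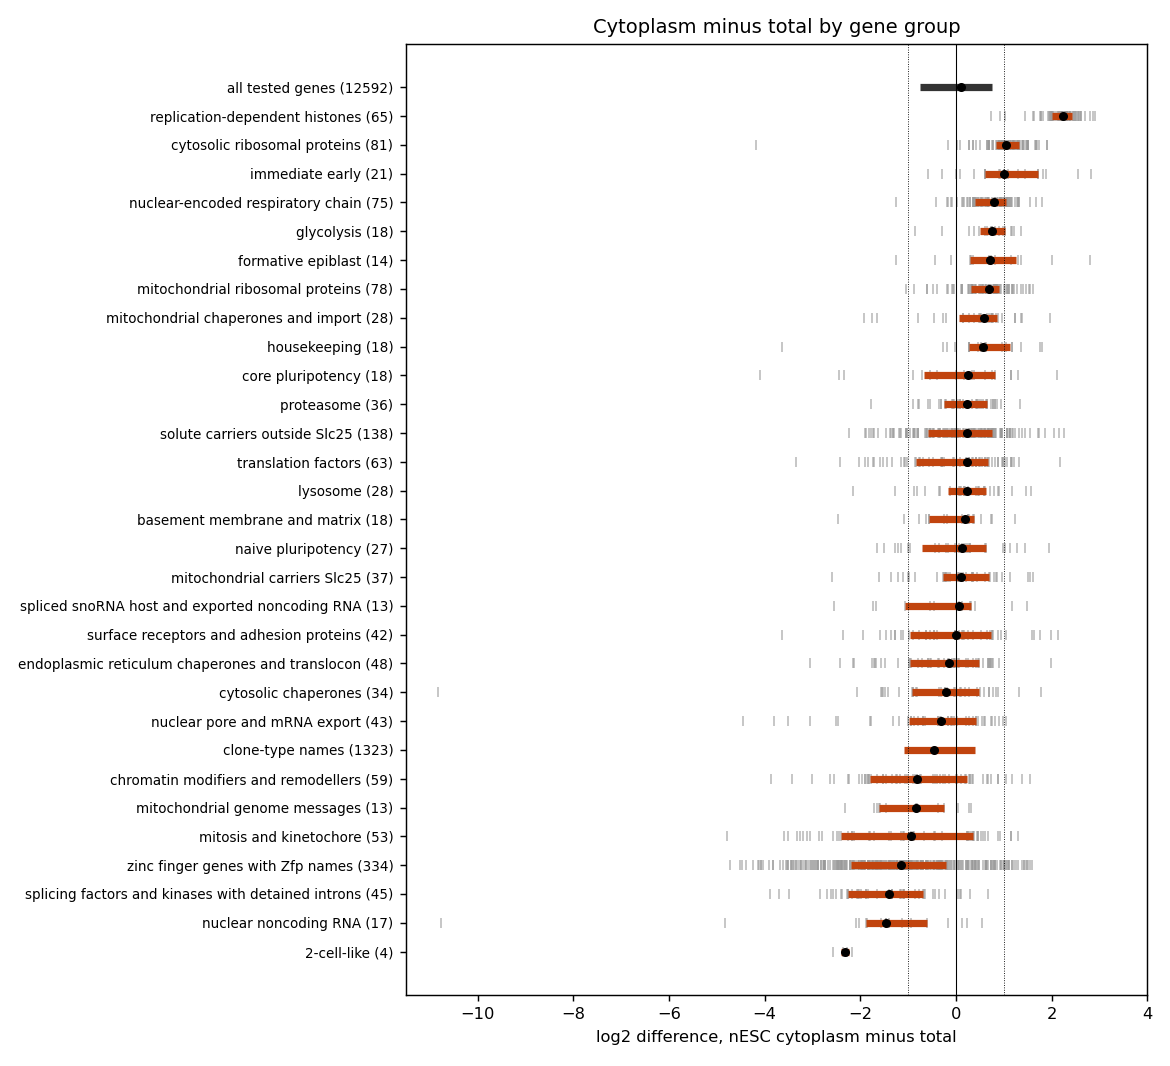
log2 difference of nESC cytoplasm minus total for the genes of 30 groups, with all tested genes on the top row and the number tested in brackets. Grey ticks are genes (not drawn for groups over 1000), bars span the middle quartiles, dots are medians, and dotted lines mark the 2-fold limit of a call; histones lie furthest right and 2-cell-like, nuclear noncoding RNA, detained-intron and Zfp genes furthest left.

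On the other side stood RNAs known to stay in the nucleus. Of 17 tested nuclear noncoding RNAs 10 fell in cytoplasm and 0 rose, with a median of -1.46 and of -1.19 in EpiLC. After the length and GC correction the median was -0.32. Meg3, an imprinted noncoding RNA (ENSMUSG00000021268.17, chromosome 12, 109541001 to 109571726), had 14.7, 12.7 and 13 FPKM in cytoplasm, against 57.6, 54.5 and 64.9 FPKM in total RNA (log2 difference -2.09, SE 0.10, adjusted p = 1.34e-09). Neat1, the scaffold of paraspeckles, had 9.96, 7.64 and 9.49 FPKM in cytoplasm, against 24, 25.4 and 28 FPKM in total RNA (log2 difference -1.47, SE 0.13, adjusted p = 3.74e-07). Mir17hg, the host transcript of the miR-17 cluster, had 0.869, 0.679 and 0.624 FPKM in cytoplasm, against 33.8, 36.2 and 32.8 FPKM in total RNA (log2 difference -4.83, SE 0.15, adjusted p = 1.17e-10). Malat1, of nuclear speckles, had 172, 181 and 166 FPKM in cytoplasm, against 579, 630 and 686 FPKM in total RNA. The groups were far apart, yet it was not called (log2 difference -1.86, SE 2.44, adjusted p = 0.492), because 1 nucleoplasm library lists it at 0 and the spread is shared by all 4 groups. With that value treated as missing its adjusted p was 6e-09, and with only the 6 libraries compared in the fit 2.02e-07. Neat1 was no longer called after the length and GC correction (-0.75).

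Hosts of small nucleolar RNAs are spliced transcripts that are exported and decay in the cytoplasm, and they were split. Of 13 tested members 2 rose (Snhg20 and Epb41l4aos) and 4 fell (Gas5, Snhg1, Snhg5 and Dancr). These were 15.4% and 30.8%, against 16.0% and 19.4% of all genes. The median was 0.05. That sign is not stable, at -0.02 without cytoplasm replicate 1 and -0.23 without total replicate 3. Snhg20 lost its call at one sum (0.52) and after the length and GC correction (0.90). Gas5 had 20.5, 17.2 and 18.4 FPKM in cytoplasm, against 111, 122 and 103 FPKM in total RNA (log2 difference -2.55, SE 0.10, adjusted p = 4.35e-10).

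Genes for splicing factors and their kinases that are known to keep detained introns in mouse embryonic stem cells mostly fell in cytoplasm. Of 45 members 31 fell and 0 rose, with a median of -1.41 in nESC and -0.91 in EpiLC. After the length and GC correction the nESC median was -0.74. Luc7l3, a splicing factor that binds U1, had 6.28, 7.77 and 7.17 FPKM in cytoplasm, against 103, 116 and 116 FPKM in total RNA (log2 difference -3.89, SE 0.13, adjusted p = 1.24e-10). Rbm25, a regulator of splice site choice, had 9.79, 12 and 12.5 FPKM in cytoplasm, against 124, 136 and 136 FPKM in total RNA (log2 difference -3.48, SE 0.09, adjusted p = 3.21e-11). Clk1, a kinase of SR proteins, had 30.1, 27.5 and 26.6 FPKM in cytoplasm, against 118, 173 and 161 FPKM in total RNA (log2 difference -2.38, SE 0.13, adjusted p = 6.92e-09). No cytoplasm library of the 3 genes reached a total library, though Clk1 was under 2-fold after the correction (-0.85). FPKM is given per gene, so spliced and unspliced transcripts are not separated here.

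Mitotic and chromatin genes had more members lower than higher in cytoplasm. Of 53 mitosis and kinetochore genes 26 fell and 3 rose (Plk1, Cenpm and Cenpw), with a median of -0.94. Kif20b, a kinesin of cytokinesis (ENSMUSG00000024795.10, chromosome 19, 34922361 to 34975745), had 0.845, 1.3 and 1.32 FPKM in cytoplasm, against 43.2, 46.5 and 44.9 FPKM in total RNA (log2 difference -4.79, SE 0.19, adjusted p = 6.19e-10). Mki67, which coats mitotic chromosomes, had 0.64, 1.01 and 1.11 FPKM in cytoplasm, against 15.1, 16.6 and 18.2 FPKM in total RNA (log2 difference -3.60, SE 0.15, adjusted p = 8.26e-10). Plk1, a kinase of mitotic entry, had 68.3, 64.9 and 75.6 FPKM in cytoplasm, against 30.5, 31.1 and 30.9 FPKM in total RNA (log2 difference 1.16, SE 0.12, adjusted p = 1.9e-06), but was at 0.26 after the length and GC correction. The low and the high members differed in base composition as well, with a GC content of 39.4% in Kif20b and 46.6% in Mki67, and 56% in Plk1. Chromatin modifiers and remodellers had 26 of 59 lower and 4 higher (Smarcb1, Smarcd1, Smarca4 and Ehmt2), with a median of -0.81. Atrx, a remodeller of heterochromatin, had 7.23, 6.76 and 4.96 FPKM in cytoplasm, against 99, 97.3 and 96.7 FPKM in total RNA (log2 difference -3.86, SE 0.14, adjusted p = 3.28e-10). Suz12, of Polycomb repressive complex 2, had 5.56, 8.63 and 7.93 FPKM in cytoplasm, against 62.5, 60.5 and 64.1 FPKM in total RNA (log2 difference -3.02, SE 0.14, adjusted p = 1.79e-09). Ehmt2, the histone methyltransferase G9a, had 78.8, 74.2 and 78.4 FPKM in cytoplasm, against 34.2, 33.6 and 33.9 FPKM in total RNA (log2 difference 1.17, SE 0.08, adjusted p = 2.97e-08), but only 0.24 after the length and GC correction.

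Nuclear pore and mRNA export genes had 11 of 43 lower (25.6%, against 19.4% of all genes) and 1, Rae1, higher, with a median of -0.32. Rae1 was no longer called at one sum (0.08) or after the length and GC correction (0.37). Ranbp2, of the cytoplasmic filaments of the pore, had 1.71, 2.47 and 2.17 FPKM in cytoplasm, against 54.8, 58.4 and 56.8 FPKM in total RNA (log2 difference -4.46, SE 0.13, adjusted p = 4.43e-11). Xpo1, the exportin of proteins and some RNAs, had 19.7, 27.5 and 21.7 FPKM in cytoplasm, against 189.8, 197 and 189.8 FPKM in total RNA (log2 difference -3.05, SE 0.12, adjusted p = 5.91e-10). The zinc finger genes with Zfp names, many of them KRAB repressors of transposons, had 185 of 334 lower and 22 higher, with a median of -1.16 and of -1.01 in EpiLC. After the length and GC correction the nESC median was -0.53. Zfp970 had 0.843, 1.86 and 1.21 FPKM in cytoplasm, against 43.2, 48.1 and 45.9 FPKM in total RNA (log2 difference -4.72, SE 0.20, adjusted p = 9.84e-10). Zfp980 had 5.65, 7.72 and 7.49 FPKM in cytoplasm, against 166, 176 and 167 FPKM in total RNA (log2 difference -4.52, SE 0.15, adjusted p = 1.49e-10). Both belong to clusters of similar genes whose reads the counting could split, so a single copy is uncertain. All 4 tested genes of the 2-cell-like state fell, with a median of -2.31. Zscan4c, of telomere maintenance, had 0.684, 0.563 and 0.505 FPKM in cytoplasm, against 6.07, 5.42 and 6.38 FPKM in total RNA (log2 difference -2.58, SE 0.33, adjusted p = 9.86e-06). Genes with clone-type names had 357 of 1323 lower (27%, against 19.4% of all genes) and 130 higher (9.83%, against 16.0%), with a median of -0.45.

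At the low extreme 46 genes were called at least 16-fold lower in nESC cytoplasm with at least 5 FPKM in total RNA. They included 10 Zfp genes, 15 clone-type names, and 5 Rrp genes. For 9 of the 46 the EpiLC difference was 0 or more. Gm10139 was listed at 0 in all 3 cytoplasm libraries, with 1087, 2093 and 3862 FPKM in total RNA.

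At the high extreme, genes other than histones with at least 5 FPKM were of mixed kinds. Cox8b, an isoform of a complex IV subunit found in heart and muscle, had 7.82, 5.07 and 8.71 FPKM in cytoplasm, against 0, 0 and 0.179 FPKM in total RNA (log2 difference 3.77, SE 0.19, adjusted p = 3.57e-09). Uba7, the activating enzyme of ISG15, had 9.35, 12.3 and 16 FPKM in cytoplasm, against 0.611, 0.364 and 0.798 FPKM in total RNA (log2 difference 3.57, SE 0.21, adjusted p = 8.84e-09). Cldn7, a tight junction claudin, had 21.8, 19.7 and 20.6 FPKM in cytoplasm, against 2.17, 1.93 and 1.75 FPKM in total RNA (log2 difference 3.12, SE 0.20, adjusted p = 2.54e-08). Fxyd2, a modulator of the sodium pump, had 43.7, 40.7 and 42.2 FPKM in cytoplasm, against 4.56, 4.44 and 4.51 FPKM in total RNA (log2 difference 3.09, SE 0.14, adjusted p = 1.35e-09). Krt18, a keratin of simple epithelia, had 18.7, 18.9 and 17.3 FPKM in cytoplasm, against 2.1, 1.94 and 2.54 FPKM in total RNA (log2 difference 2.81, SE 0.15, adjusted p = 4.98e-09). Gata2, a transcription factor known from blood and trophoblast, had 6.5, 9.25 and 4.71 FPKM in cytoplasm, against 0.0454, 0.242 and 0.318 FPKM in total RNA (log2 difference 3.36, SE 0.25, adjusted p = 7.39e-08). Cox8b and Gata2 were near 0 in every total library and the other genes of this set were low there. Nucleoplasm was called above total RNA as well for Cox8b (mean 4.30 FPKM), Gata2 (3.67), Cldn7 (14.6), Fxyd2 (14.4) and Krt18 (5.28). Cytoplasm was thus not alone in being higher than total RNA for these genes. Total RNA was not alone in being low either. Chromatin averaged 0 FPKM of Cox8b, 0.47 of Gata2, 1.95 of Cldn7, 2.43 of Fxyd2 and 1.17 of Krt18. No nucleoplasm value is given here for Uba7.

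The difference varied with the base composition of the transcript. Among genes whose longest transcript had a GC content under 40%, 69.6% were lower and 1.08% higher in cytoplasm, with a median of -1.61. At 60% or more, 1.81% were lower and 57.2% higher, with a median of 1.10. The medians of the classes between, from low to high GC, were -0.90, -0.19, 0.47 and 0.82. In EpiLC the lowest class had a median of -1.58 and the highest one of 0.78. By exonic length, genes with 1 to 2 kb of exons had a median of 0.56 and those of 8 kb or more one of -0.53. By exon number the median was 0.23 at 2 to 3 exons and -0.51 at 25 or more. Coding genes had a median of 0.16 (11558 genes), antisense genes of -0.35 (378 genes) and lincRNA genes of -0.65 (322 genes). The gene groups differ in the same property, with a median GC content of 58.8% in histones, 43.2% in Zfp genes and 37.1% in mitochondrial genome messages. Its part in their differences was not tested apart from the correction, under which 2471 genes were called.

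**Figure D4:**
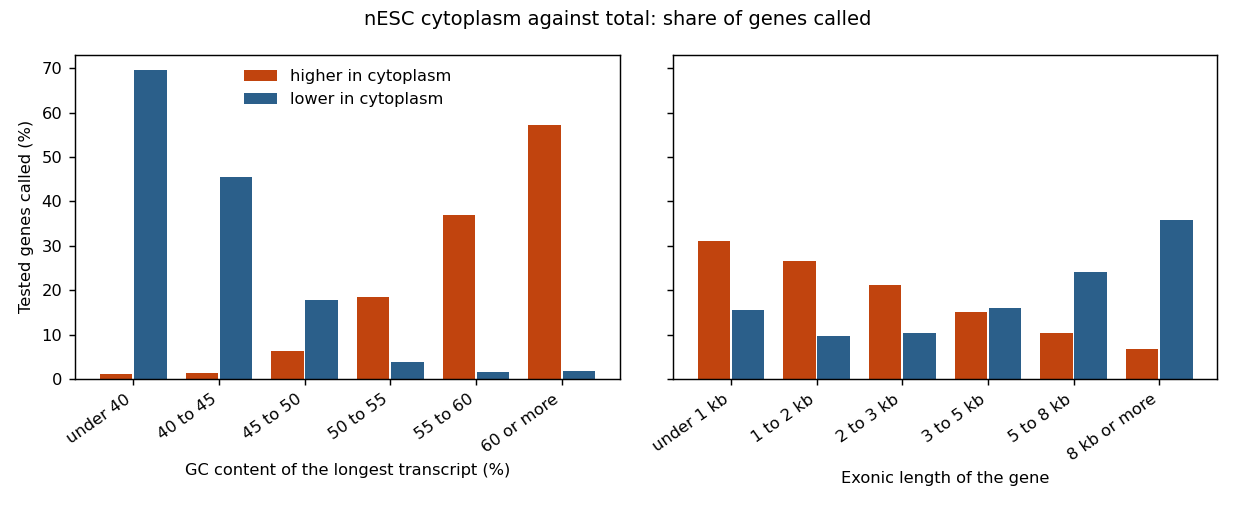
Share of tested genes called higher or lower in nESC cytoplasm than in total RNA, by GC content of the longest transcript (left panel) and by exonic length (right panel). Calls of higher genes reach 57.2% at 60% GC or more, and calls of lower genes 69.6% under 40% GC.

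Total RNA was also set against all 3 fractions of nESC. It was called above cytoplasm, nucleoplasm and chromatin alike for 52 genes (0.413% of those tested) and below all 3 for 156 genes (1.24%). The 52 genes had a median GC content of 42.6%, and the 156 genes one of 57.4% and a median exonic length of 6170 bases, against 49.7% and 4150 bases over all genes. With the length and GC correction the counts were 18 above and 40 below, and at one sum 25 above and 71 below. Cbx3, the heterochromatin protein HP1 gamma, had 60.4 ± 12.1 FPKM in cytoplasm, 111 ± 5.72 in nucleoplasm and 75.4 ± 14.9 in chromatin, against 295 ± 8.83 FPKM in total RNA (SD, n = 3 each). Dnaja1, a cochaperone of HSP70, had 49.5 ± 4.76, 85.4 ± 3.82 and 67.2 ± 8.23 FPKM in the same 3 fractions, against 209.8 ± 19.5 FPKM in total RNA. Cbx3 and Dnaja1 were not called between cytoplasm and total RNA after the correction (-0.80 and -0.81). Bzw1, Serpinb9b, Otud6b, Capza2, Taf7 and Trh were further examples, with total RNA above the highest fraction in each. Lyz2, a lysozyme of macrophages, met the rule with 0, 7.11 and 30.8 FPKM in total RNA and at most 0.0625 FPKM in cytoplasm, and its total libraries disagree among themselves.

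On the low side, Jun had 5.08 ± 0.0742 FPKM in cytoplasm, 3.9 ± 0.339 in nucleoplasm and 4.17 ± 0.336 in chromatin, against 0.459 ± 0.123 FPKM in total RNA. Ptprf, a receptor tyrosine phosphatase, had 17.4 ± 0.341, 44.2 ± 2.32 and 18 ± 5.84 FPKM in these fractions, against 4.06 ± 0.353 FPKM in total RNA. Tle3, a Groucho corepressor, had 64.8 ± 2.68, 48.5 ± 0.957 and 27.5 ± 2.74 FPKM, against 8.41 ± 0.839 FPKM in total RNA. Cad, the enzyme that opens pyrimidine synthesis, had 85 ± 8.72, 80.03 ± 8.38 and 84.6 ± 23.7 FPKM, against 31.1 ± 2.25 FPKM in total RNA. In EpiLC the cytoplasm difference of Jun was -0.17, of Ptprf 0.17, of Tle3 0.93 and of Cad 0.18.

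**Figure D5:**
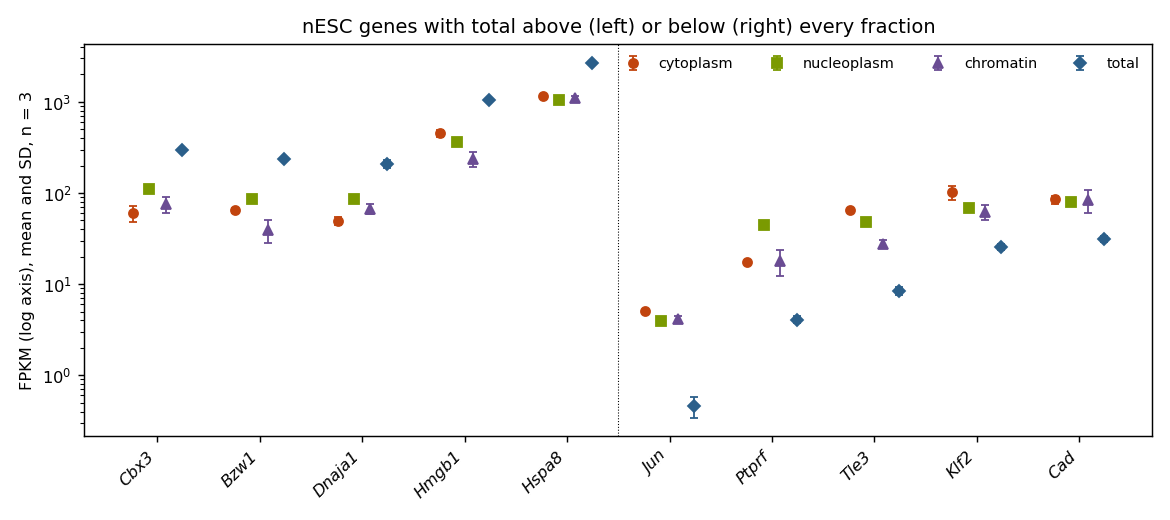
Mean FPKM (log axis) with SD over 3 libraries in nESC cytoplasm, nucleoplasm, chromatin and total RNA, for 5 genes called above every fraction in total RNA (left of the dotted line) and 5 called below every fraction (right). Total RNA is the highest point of each left gene and the lowest of each right gene.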

How the data were processed

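RNA of 4 fractions (total, cytoplasm, nucleoplasm, chromatin) of 2 cell states was sequenced, per the labels after ribosomal RNA depletion and a stranded total RNA library kit. The authors deposited FPKM values per gene in 1 table for each state. Per the submitters' processing notes, TopHat2 and Cuffnorm were used with mm10 (GRCm38). Their versions, and whether counting was by strand, were not given in the sources used here. Each table column was matched to a library by its name, with 0 left unmatched, and libraries were grouped by their labels.

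Values were set on the log2(FPKM + 0.5) scale, which understates changes of low genes. Genes averaging 1 FPKM or more across the 12 nESC libraries were fitted in limma 3.58.1 (R 4.3.3) with 4 groups and a mean-variance trend, and p-values were adjusted over all tested genes (Benjamini-Hochberg). The fit was checked on simulated data. Genes named were the 20 strongest separated calls in each direction with at least 5 FPKM, leaving out clone-type and pseudogene names, up to 4 members of each list, 20 markers, and 10 genes with total RNA furthest above every fraction. The rest, among them the Rrp, exosome, nucleolar and repeat lists, Hsp90ab1, Eef1a1 and mt-Co3, were chosen after their values were seen. The genes and lists were chosen with earlier results of these data known. Alternatives were other pseudocounts, filters, scalings, a length and GC correction, the 6 compared libraries alone, a replicate block and each library left out. FPKM keeps no counts, so no counting interval is given. Some genes of the lists are not named here.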

Additional observations from a re-analysis of the deposited data

Results flagged for a closer look

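For 18 of 132 genes described, chosen with their values known, every nESC cytoplasm library moved one way against total RNA and every EpiLC cytoplasm library the other way. Over the 11704 genes tested in both states, this held for 518 that were lower and 174 that were higher in nESC cytoplasm. The 2 states were normalized in separate tables, and the difference between them was not tested for any of these genes. Lower in nESC and higher in EpiLC were Rrp1 (log2 difference -6.76 in nESC and 0.76 in EpiLC), Rrp36 (-5.64 and 0.95), Rrp7a (-5.34 and 1.30), Rrp12 (-5.27 and 0.65), Rrp8 (-2.97 and 0.46), Rrp1b (-2.55 and 0.40) and Rrp9 (-1.19 and 1.63). The same held for Cmtr1 (-4.88 in nESC and 0.56 in EpiLC), Exosc5 (-4.84 and 1.44), Rpl12 (-4.19 and 1.27), AY036118 (-4.47 and 1.87) and Rrnad1 (-2.64 and 0.22).

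Trh, the precursor of thyrotropin-releasing hormone, was at -1.29 in nESC and 2.63 in EpiLC. Zfp42 was at -1.15 in nESC and 0.70 in EpiLC, and Dppa3, a maternal factor of the naive state, at -1.01 in nESC and 1.01 in EpiLC. Higher in nESC and lower in EpiLC were Dusp1 (1.72 in nESC and -0.43 in EpiLC), Fos (1.45 and -3.73) and mt-Co3 (0.32 and -0.55).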

How the results depend on the processing

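Over the genes described and their alternatives, 2269 values kept direction and side of the threshold, 75 lost the call, 12 gained it and 13 changed sign. The counts of calls moved with the scaling, the correction and the call rule. After correction for length and GC there were 2471 calls (987 higher, 1484 lower), with total RNA above every fraction for 18 and below for 40. At one sum 216 were higher and 5072 lower, with 25 above and 71 below. With the adjusted p alone 10060 were called, 5428 higher and 4632 lower, with 918 above and 1144 below. Below every fraction stood 271 genes at a pseudocount of 0.1 and 100 at a mean of at least 5 FPKM, where no 2-cell-like gene remained. Leaving out 1 library gave 4387 to 4576 calls, 1953 to 2076 higher, 2415 to 2500 lower, 48 to 57 above and 146 to 185 below.

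Signs turned at one sum for Hsp90ab1 (-0.77), Nanog (-0.71), Sox2 (-0.80), Klf4 (-0.63), mt-Co3 (-0.65) and Eef1a1 (-0.70). After the length and GC correction they turned for Hsp90ab1 (-0.16), Sox2 (-0.23), Klf4 (-0.41), mt-Co1 (0.22), mt-Nd6 (0.36), mt-Atp8 (0.88) and Vbp1 (0.17). The cause was not tested. Dppa3 lost its call without cytoplasm replicate 2 (-0.90), cytoplasm replicate 3 (-0.99) or total replicate 3 (-0.99), and also with a pseudocount of 1 (-0.99), with centring (-0.85) and after the length and GC correction (-0.78). Exosc4 lost its call without cytoplasm replicate 1, total replicate 2 or total replicate 3 (0.98 each), at one sum (0.06) and after the length and GC correction (0.17). Lyz2 was at -1.91 without total replicate 3 and -4.89 without total replicate 1.

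List medians that changed sign at one sum were mitochondrial ribosomal proteins (-0.28), nuclear-encoded respiratory chain (-0.17), glycolysis (-0.21), naive pluripotency (-0.83), core pluripotency (-0.71), formative epiblast (-0.27), spliced snoRNA host and exported noncoding RNA (-0.90), translation factors (-0.73), proteasome (-0.72), housekeeping (-0.38), solute carriers outside Slc25 (-0.55), lysosome (-0.73), mitochondrial carriers Slc25 (-0.69), basement membrane and matrix (-0.79) and mitochondrial chaperones and import (-0.37). With the length and GC correction they were naive pluripotency (-0.11), core pluripotency (-0.20), mitochondrial genome messages (0.82), solute carriers outside Slc25 (-0.09) and basement membrane and matrix (-0.50). Surface receptors turned positive with centring (0.15) and without cytoplasm replicate 1 (0.02), cytoplasm replicate 2 (0.01) or total replicate 3 (0.02), the endoplasmic reticulum list with centring (0.01), and the snoRNA hosts negative without cytoplasm replicate 1 (-0.02) or total replicate 3 (-0.23). Solute carriers were at 0 without a filter.

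Replicate numbers did not pair the libraries: deviations of same-numbered cytoplasm and total libraries correlated at 0.00489, 0.0370 and 0.00972. With the replicate number as a block 4454 genes were called, 2012 higher and 2442 lower, with 52 above and 157 below. Cytoplasm libraries hold fewer fragments per FPKM than total libraries, so low cytoplasmic values are the less precise ones.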

Other observations

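Of 11704 genes tested in both states, 174 had all nESC cytoplasm libraries above and all EpiLC cytoplasm libraries below their total libraries. The reverse held for 518 genes. The difference between the states was not tested.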
